A study of Mus musculus with 4 samples.

Results

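The angiopoietin and Tie receptor genes were examined in the infarcted left ventricle of KDM5B-knockout (KO) and wild-type (WT) mice. The 7 genes were Angpt1, Angpt2, Tek, Tie1, Ptprb, Angptl2 and Angptl4. They were found by gene name among the 27376 distinct entries in the gene name column of the arrays, where 15 of the 41174 non-control probes carried their names. All 15 were well above background on all 4 arrays and belonged to the 28304 probes that could be tested.

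RNA came from the left ventricle of mice labelled male, 8 to 10 weeks old, at 7 days after myocardial infarction (MI). MI was caused by tying off the left coronary artery in its anterior descending branch. KO mice carried a CRISPR/Cas9 deletion with a frameshift in the part of Kdm5b that encodes the JmjC domain, on a C57BL/6 background, and WT mice were their littermates. All 4 samples, 2 per genotype, had undergone MI, and no sham or remote tissue was compared here. Each sample was hybridised in Cy3 to 1 Agilent one-colour array, and the titles number the arrays 2 and 3 in each genotype, so that they are called WT 2, WT 3, KO 2 and KO 3. The labels do not state that a number joins a WT and a KO sample, or whether a sample is 1 mouse or a pool.

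Angiopoietins are secreted ligands of Tek (Tie2), a receptor tyrosine kinase of endothelial cells. Angpt1, made largely by mural and other perivascular cells, activates Tek and keeps vessels quiet and tight, whereas Angpt2, released by endothelial cells, acts at Tek as an antagonist or a weak agonist depending on the setting and loosens vessels so that they can sprout or regress. Tie1 is the related receptor without a firmly established ligand that modulates Tek, and Ptprb (VE-PTP) is the endothelial phosphatase that removes phosphate from Tek. Angptl2 and Angptl4 are angiopoietin-like proteins that resemble the ligands in structure but do not bind Tek. Angptl2 is a secreted factor linked with inflammation and tissue remodelling, and Angptl4 inhibits lipoprotein lipase and is a target of PPAR nuclear receptors and of hypoxia.

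The 60-base sequences of 4 probes are shown because they fix what was measured for the ligand Angpt1 (2 probes that can be compared), the receptor Tie1 and the angiopoietin-like gene Angptl2. They are printed 5′ to 3′ in lower case as the scanner files hold them, with coordinates on build mm9. No letters are capitalised because no site within a probe was examined.
Angpt1 probe 1 (chr15:42327896-42327955, minus strand): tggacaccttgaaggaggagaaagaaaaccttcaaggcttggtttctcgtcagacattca
Angpt1 probe 2 (chr15:42258569-42258628, minus strand): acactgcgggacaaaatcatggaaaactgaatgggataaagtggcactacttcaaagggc
Tie1 (chr4:118144132-118144191, minus strand): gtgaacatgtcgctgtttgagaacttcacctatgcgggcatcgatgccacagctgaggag
Angptl2 probe 1 (chr2:33099253-33099312, plus strand): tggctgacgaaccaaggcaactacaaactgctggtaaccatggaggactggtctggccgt
The starts of the Angpt1 probes lie 69.3 kb apart in the genome, and each probe has a GC content of 45%. The GC content of the Tie1 probe is 53.3% and that of the Angptl2 probe 55%. The place of the probes within exons was not determined.

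Levels below are log2 processed signals taken relative to the 75th percentile of each array. A difference is the KO mean less the WT mean on that log2 scale. A level can be compared between arrays for 1 probe, but not between probes, because probes differ in how brightly they bind. Where a gene had several probes, the brightest over the 4 arrays is called its probe 1. RNA of whole tissue was measured, so fewer cells of a type and less RNA per cell cannot be told apart.

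By limma, no probe passed an adjusted p under 0.05 with a fold change over 2, which is 0% of the probes tested, and 0 of the 15 probes described here passed. The lowest adjusted p over all probes was 0.9999, and 410 of the 28304 probes had an unadjusted p under 0.05. With 2 samples against 2, an exact two-sided permutation test cannot give a p below 0.333. The members are therefore described by their values on each array, and none of the differences below passed the limma test.

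Some facts of the arrays touch these genes. The arrays shared 1 slide and 1 scan day, WT occupied positions 1 and 2 and KO positions 3 and 4, and position and genotype therefore cannot be told apart. On each array 68.1% to 72.0% of probes stood well above background and no spot was saturated. Kdm5b, the targeted gene, was measured by 2 probes that differed by -0.996 (SE 0.40) and -1.19 (SE 0.45), each lower on both KO arrays than on both WT arrays and each still well above background there; the position of these probes relative to the deletion was not determined. Although every sample is labelled male, the brightest of the Xist probes had an unscaled log2 signal of 14.13 (WT 2) and 13.24 (KO 2) with 1.92 (WT 3) and 2.01 (KO 3), whereas the Y-linked gene Ddx3y read 2.12 and 1.63 with 11.88 and 11.44 in the same order. Against the label, the number 2 arrays thus read as female RNA and the number 3 arrays as male. Sex and array number therefore cannot be told apart. Since this separates number 2 from number 3 in both genotypes, each difference is also given within a number, where it compares 1 array with 1 array. KO 2 stood apart in adipocyte genes, with a mean of 1.15 over the 4 measured genes of that list against values between -2.57 and -2.14 on the other arrays.

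**Figure D1:**
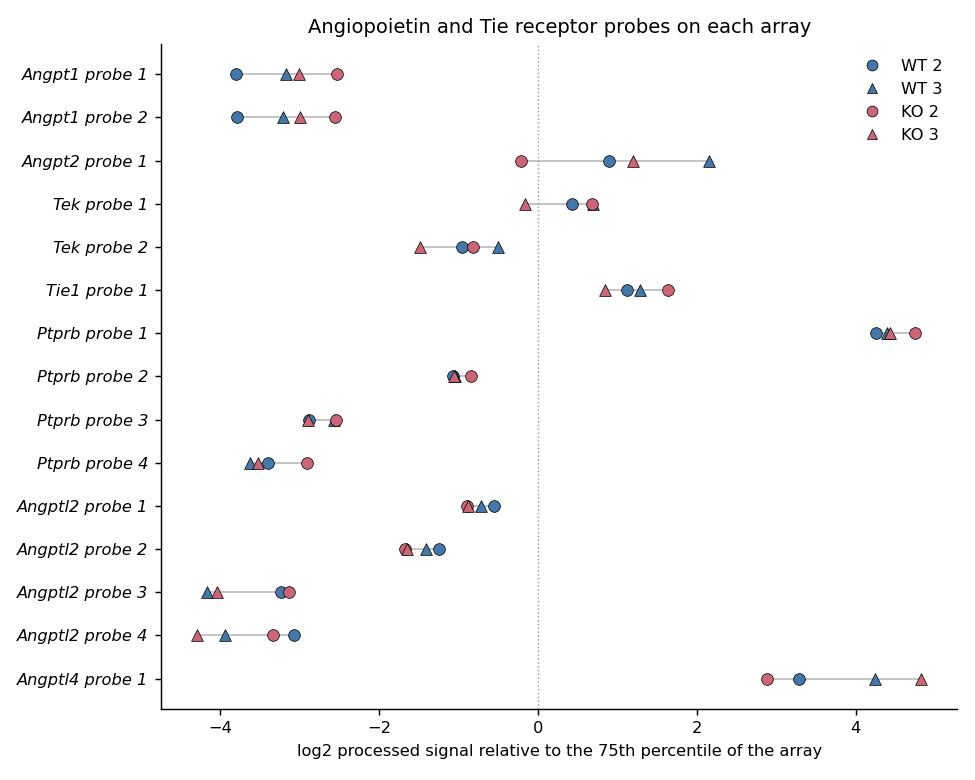
Log2 processed signal of each of the 15 probes relative to that array's 75th percentile (horizontal axis), 1 row per probe, with circles for number 2, triangles for number 3, blue for WT and red for KO. Red symbols lie to the right of blue ones for both Angpt1 probes, whereas for Angpt2 and Angptl4 the triangles lie to the right of the circles of the same colour.

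The ligands differed between genotypes in opposite directions on average. Angpt1 was higher on both KO arrays than on both WT arrays, and its lead over WT was large at number 2 and small at number 3. Angpt2 was lower in KO than in WT at each number, by about the same amount, but its levels in the groups overlapped. Neither difference passed the test.

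Angpt1 probe 1 gave levels of -3.80 (WT 2), -3.17 (WT 3), -2.54 (KO 2) and -3.01 (KO 3). The genotypes did not overlap, WT 2 was the lowest array and KO 2 the highest, and WT 3 and KO 3 lay close together. WT averaged -3.48 ± 0.45 and KO -2.77 ± 0.33 (SD, n = 2 each), a difference of 0.71 (SE 0.35), or 1.64-fold. KO exceeded WT by 1.26 at number 2 and by 0.16 at number 3.

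Angpt1 probe 2 gave almost the same picture from a distant place in the gene. Its levels were -3.80 (WT 2), -3.22 (WT 3), -2.56 (KO 2) and -3.01 (KO 3), and the difference was 0.72 (SE 0.33). Unscaled, KO 2 at 6.68 was again below WT 3 at 6.71. KO exceeded WT by 1.23 at number 2 and by 0.21 at number 3. Probes of 1 gene read the same samples and are not replicates. Among all tested probes, 13.1% had both KO arrays above both WT arrays, and both Angpt1 probes were of this kind.

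Angpt2 was read by 1 probe (chr8:18691458-18691517, minus strand), with levels of 0.89 (WT 2), 2.15 (WT 3), -0.21 (KO 2) and 1.20 (KO 3). Each KO array was below the WT array of its number, but KO 3 was above WT 2. WT averaged 1.52 ± 0.90 and KO 0.49 ± 0.996 (SD, n = 2 each), a difference of -1.03 (SE 0.72), which corresponds to 2.04-fold more signal in WT. KO minus WT was -1.10 at number 2 and -0.96 at number 3. A lower value in KO at both numbers was found for 21.7% of all tested probes.

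The array number separated the Angpt2 levels more than the genotype did. Number 3 exceeded number 2 by 1.27 in WT and by 1.41 in KO, a mean of 1.34 (SE 0.24), with a limma adjusted p of 0.418 for number 3 against number 2. That fit holds genotype and number together, and the SE of 0.72 above is from the fit without number. In the joint fit the genotype difference of -1.03 also had an SE of 0.24, with a limma adjusted p of 0.995. The comparison of number 3 against number 2 called 0% of the tested probes, although 3280 had an unadjusted p under 0.05, and the lowest adjusted p was 0.418. Arrays of number 3 lay above those of number 2 without overlap for 32% of the tested probes. The size of the Angpt2 difference depended on single arrays, being -1.73 without KO 3, -1.66 without WT 2, -0.39 without WT 3 and -0.32 without KO 2.

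Because Angpt2 opposes Angpt1 at Tek, the change in their balance was computed as the difference between the log2 levels of their lead probes on each array. The height of this value has no meaning, since it sets 1 probe against another, but its change between arrays can be read. It was 4.69 (WT 2), 5.32 (WT 3), 2.33 (KO 2) and 4.21 (KO 3). Both KO arrays were below both WT arrays, and KO minus WT was -1.74, with -2.36 at number 2 and -1.12 at number 3. This value is made only from the lead probes described above. How often other probe pairs separate in this way was not computed. The exact two-sided permutation p was 0.333, the smallest that 2 arrays against 2 allow. Leaving out 1 array at a time gave values between -2.68 without KO 3 and -0.80 without KO 2.

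**Figure D2:**
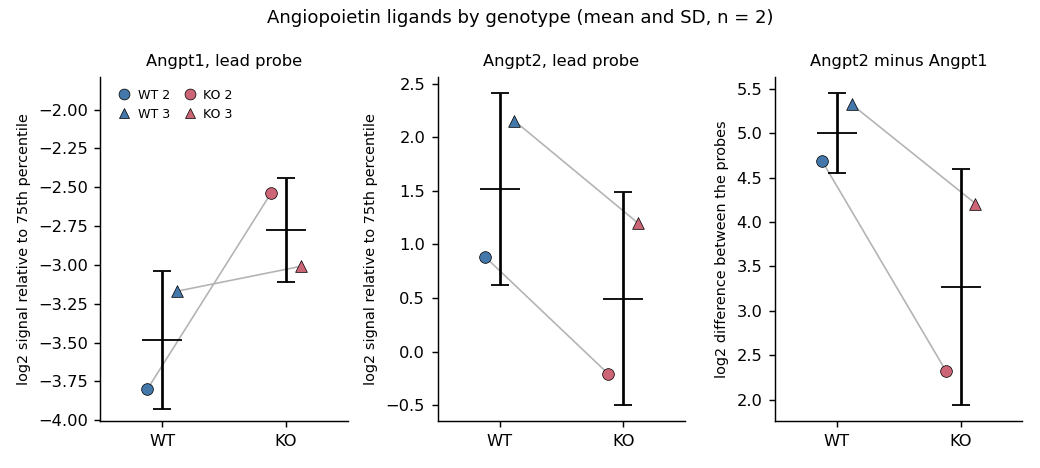
Log2 signal of the lead probes of Angpt1 (left) and Angpt2 (middle) and the log2 difference between them (right) on each array, by genotype, with the mean and SD (n = 2) and grey lines joining arrays of the same number. Each line goes up from WT to KO in the Angpt1 panel and down in the Angpt2 panel, the Angpt2 groups overlap, and each panel has its own axis that does not start at 0.

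The receptor Tek, its partner Tie1 and its phosphatase Ptprb differed little between genotypes on average. Tek and Tie1 were higher on KO 2 than on WT 2 and lower on KO 3 than on WT 3. Ptprb was the receptor-complex gene whose brightest probe did not overlap between genotypes, with a difference of 0.26. With quantile normalization this was 0.070 and with the authors' values 0.069, and on both, as with normexp, the genotypes overlapped.

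Tek probe 1 (chr4:94540861-94540919, plus strand) gave levels of 0.42 (WT 2), 0.69 (WT 3), 0.67 (KO 2) and -0.16 (KO 3). KO 3 was the low array and the others lay close together. The difference was -0.30 (SE 0.38), made up of 0.25 at number 2 and -0.85 at number 3.

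Tek probe 2 (chr4:94408487-94408546, plus strand), which the files assign to a cDNA clone (AK053336) and whose start lies 132.4 kb from that of probe 1, followed the same order within each number. It read -0.96 (WT 2), -0.50 (WT 3), -0.82 (KO 2) and -1.49 (KO 3). The genotypes overlapped, and KO minus WT was -0.42 (SE 0.36), with 0.14 at number 2 and -0.98 at number 3.

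Tie1 levels were 1.12 (WT 2), 1.28 (WT 3), 1.63 (KO 2) and 0.85 (KO 3). The WT arrays lay between the KO arrays, so the groups overlapped and their means differed by 0.04 (SE 0.35). KO minus WT was 0.51 at number 2 and -0.43 at number 3.

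Ptprb was measured by 4 probes, of which the brightest (chr10:115820912-115820971, plus strand) read 4.25 (WT 2), 4.40 (WT 3), 4.74 (KO 2) and 4.42 (KO 3). KO 2 was the high array, and KO 3 exceeded WT 3 by only 0.03. The unscaled log2 signals were 14.03 (WT 2), 14.33 (WT 3), 13.99 (KO 2) and 14.21 (KO 3), with KO below WT at both numbers. WT averaged 4.32 ± 0.10 and KO 4.58 ± 0.22 (SD, n = 2 each), a difference of 0.26 (SE 0.24). The remaining Ptprb probes overlapped between genotypes, with differences of 0.10, 0.01 and 0.30, so that the separation held for 1 of the 4 probes.

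Tek, Tie1 and Ptprb are transcribed mainly in endothelial cells, and endothelial markers were therefore read beside them. The mean level of the 16 endothelial markers, all well above background on all arrays, was 2.53 (WT 2), 2.59 (WT 3), 3.04 (KO 2) and 2.43 (KO 3). It was thus highest on KO 2 and lowest on KO 3, as Tie1 was. Of these markers 13 were higher and 3 lower in KO by their means, with a median difference of 0.22 beside 0.02 for all tested probes. The median of these markers was 0.55 at number 2 and -0.17 at number 3. The profile most like that of Tie1 over the 4 arrays, among 120 genes of the lists used, was that of Pecam1, the endothelial adhesion molecule CD31, with a root mean square difference of 0.096 log2 units, followed by the junction protein Esam at 0.099. For Ptprb the nearest were Sox17, an endothelial transcription factor, at 0.075 and Pparg, a nuclear receptor of lipid metabolism, at 0.080. For Tek they were the pericyte gene Rgs5 at 0.20 and the angiopoietin-like gene Angptl1 at 0.21.

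On a scale chosen after the data were seen, each value was taken relative to the mean of these endothelial markers on the same array. Tek probe 1 then read -2.11 (WT 2), -1.90 (WT 3), -2.37 (KO 2) and -2.59 (KO 3), and both KO arrays were below both WT arrays. The difference was -0.47, with -0.25 at number 2 and -0.68 at number 3. Tek probe 2 behaved alike, with a difference of -0.59 and no overlap.

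On this scale 10.5% of all tested probes had both KO arrays below both WT arrays and 3.97% had both above, and the median difference of all tested probes was -0.15. Tie1 differed by -0.13 and Ptprb probe 1 by 0.09, each with overlap. Angpt1 probe 1 was still higher on both KO arrays, with a difference of 0.54, and Angpt2 differed by -1.20 with overlap. Angptl2 probe 1 differed by -0.42, with -0.84 at number 2 and 0.00045 at number 3, and its genotypes then overlapped. Angptl2 probe 2 differed by -0.50 and still had both KO arrays below both WT arrays. Whether the content of endothelial cells contributed to the receptor values was not tested.

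**Figure D3:**
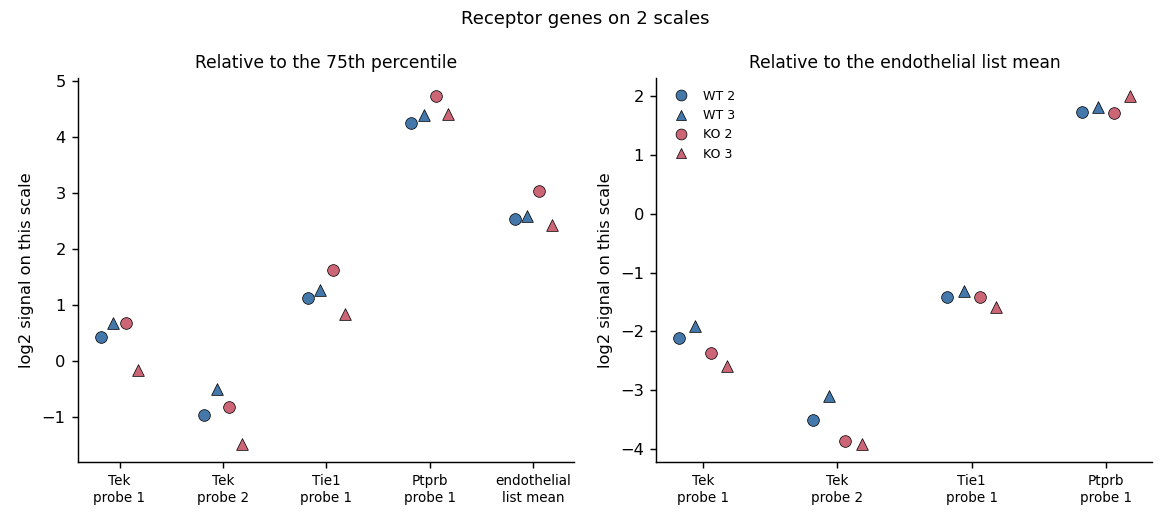
Log2 signal on each array of both Tek probes, Tie1 and Ptprb probe 1, relative to that array's 75th percentile (left, with the mean of the endothelial list) and relative to the mean of the endothelial list (right). On the left KO 2 (red circles) and KO 3 (red triangles) of Tek and Tie1 lie apart, and on the right both KO arrays of Tek lie below both WT arrays.

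The angiopoietin-like genes showed small or inconsistent differences. Angptl2 was lower on both KO arrays by its brighter pair of probes, a difference of no more than 0.33. Angptl4 differed between array numbers and had almost the same mean in both genotypes.

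Angptl2 probe 1 read -0.56 (WT 2), -0.72 (WT 3), -0.90 (KO 2) and -0.89 (KO 3). The KO arrays were nearly equal and below both WT arrays. WT averaged -0.64 ± 0.12 and KO -0.89 ± 0.0062 (SD, n = 2 each), a difference of -0.25 (SE 0.21), with -0.34 at number 2 and -0.17 at number 3. Both KO arrays were below both WT arrays for 10.9% of all tested probes.

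Angptl2 probe 2, whose start lies 2.85 kb from that of probe 1, also separated the genotypes. Its levels were -1.25 (WT 2), -1.41 (WT 3), -1.68 (KO 2) and -1.65 (KO 3), a difference of -0.33 (SE 0.21). The dimmer probes 3 and 4, which the files assign to separate Ensembl transcripts (ENSMUST00000139148 and ENSMUST00000143252), overlapped between genotypes. Probe 4 was lower in KO within each number, with -0.27 at number 2 and -0.35 at number 3, and probe 3 was higher within each.

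Probe 3 read -3.24 (WT 2), -4.16 (WT 3), -3.14 (KO 2) and -4.04 (KO 3). Probe 4, with a start only 210 bases from that of probe 1, read -3.07, -3.94, -3.34 and -4.29 in the same order. Both were lower on the number 3 arrays, each by 0.91 on average, and differed between genotypes by 0.11 and -0.31 with overlap. Arrays of number 3 lay below those of number 2 without overlap for 28.7% of the tested probes. The probes of Angptl2 therefore disagree in how they order the arrays, and a value for the gene depends on the probe chosen. The profiles most like that of Angptl2 probe 1 were those of the fibroblast matrix genes Dcn, encoding decorin, at a root mean square difference of 0.064 and Col3a1, encoding a collagen III chain, at 0.084.

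Angptl4 (chr17:33911880-33911939, minus strand) read 3.28 (WT 2), 4.24 (WT 3), 2.88 (KO 2) and 4.82 (KO 3). The KO arrays were the lowest and the highest, and WT averaged 3.76 ± 0.68 and KO 3.85 ± 1.38 (SD, n = 2 each). The difference was 0.09 (SE 0.82), with -0.40 at number 2 and 0.58 at number 3. Number 3 exceeded number 2 by 1.45 (SE 0.36), with a limma adjusted p of 0.418. This SE is from the fit with genotype and number together, where the genotype difference also had an SE of 0.36.

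The gene most like Angptl4 in profile was Plin2, encoding the coat protein of lipid droplets, at a root mean square difference of 0.099. Plin2 also had a higher level on the number 3 arrays, reading 3.94 (WT 2), 4.97 (WT 3), 3.71 (KO 2) and 5.74 (KO 3). The next gene was the complement gene C1qc of macrophages, at 0.24. For Angpt1 the nearest profiles were those of the pericyte gene Higd1b at 0.19 and of Pik3r1, a regulatory subunit of PI3-kinase, at 0.20. These are likenesses over 4 arrays that share their scaling, given as a description.

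By their lead probes, 4 of the 7 genes were higher and 3 lower in KO, with a median difference of 0.04. The genotypes did not overlap for 3 genes, with Angpt1 and Ptprb higher and Angptl2 lower, beside 13.1% of all tested probes with both KO arrays above and 10.9% with both below. Angpt1 and Ptprb were higher in KO at both numbers, as were 24.8% of all tested probes, and Angpt2 and Angptl2 were lower at both. The differences at the numbers had opposite signs for Tek, Tie1 and Angptl4. Leaving out 1 array at a time, between 3 and 6 of the lead probes did not overlap, since a group of 1 array separates more easily.

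**Figure D4:**
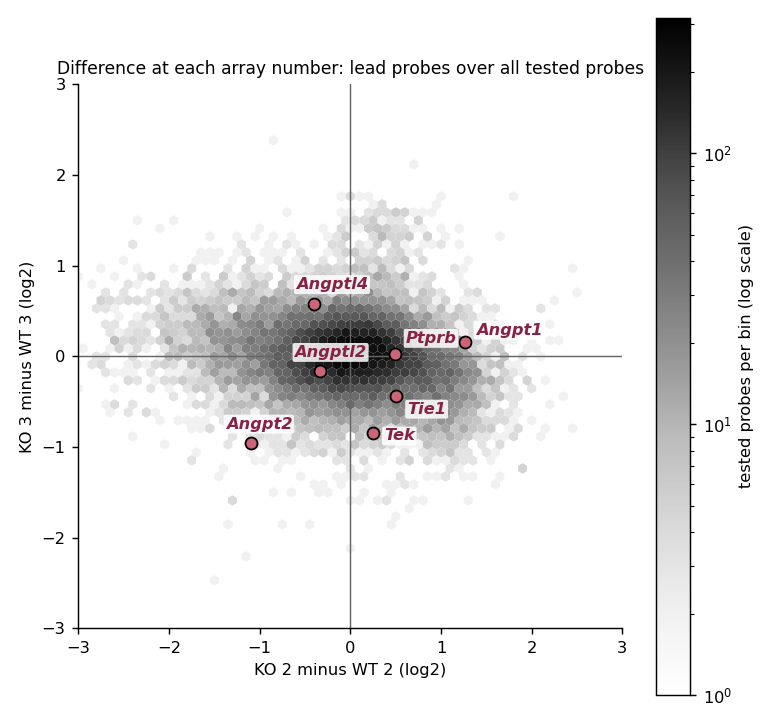
KO minus WT at number 2 (horizontal axis) against KO minus WT at number 3 (vertical axis), both in log2 units, for the lead probes of the 7 genes (red points) over the density of all tested probes (grey, log scale), with 262 probes outside the axes. Angpt2 lies in the lower left at -1.10 and -0.96, Angpt1 in the right at 1.26 and 0.16, and Tek and Tie1 in the lower right.

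The pathway around Tek was examined by a list of 18 genes for its adaptors, kinases, targets and partners, of which 17 were tested and the adaptor Grb7 was too dim. Of these, 10 were higher and 7 lower in KO, with a median difference of 0.14, and 0 passed the limma test. Akt1, Klf2 and Grb2 were higher on both KO arrays than on both WT arrays, and no gene of the list was lower without overlap. These are 3 of 17 genes, beside 13.1% of all tested probes.

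Akt1, the kinase that carries the survival signal of Tek, read 4.38 (WT 2), 4.30 (WT 3), 5.19 (KO 2) and 4.55 (KO 3), a difference of 0.53 (SE 0.31). Klf2, a transcription factor of quiescent endothelium, read 4.65, 4.42, 5.09 and 4.76 in the same order and differed by 0.39 (SE 0.25). Grb2, an adaptor that binds the phosphorylated receptor, differed by 0.14. The median of the list was 0.13 at number 2 and 0.00052 at number 3.

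Of 6 further angiopoietin and angiopoietin-like genes, 5 were tested and Angpt4, a further ligand of Tek, was too dim. Of the 5, 2 were higher and 3 lower in KO with a median of -0.32, and 0 passed the test. The median was -0.27 at number 2 and 0.11 at number 3. Angptl1 alone did not overlap, with -1.94 (WT 2), -1.77 (WT 3), -2.21 (KO 2) and -2.57 (KO 3), a difference of -0.53 (SE 0.25). Lower values on both KO arrays without overlap were found for 10.9% of all tested probes.

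The genes around lipoprotein lipase and the PPAR receptors, the setting of Angptl4, divided by array number. Of 14 genes 12 were tested, Ppard and Ucp3 being too dim, and 10 were higher and 2 lower in KO with a median of 0.34. The median was 1.23 at number 2 and -0.27 at number 3, all 12 overlapped between genotypes, and 0 passed the test. Angptl4 itself had the opposite signs, -0.40 and 0.58.

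The hypoxia list, for a further regulator of Angptl4 and of Angpt2, had 12 tested genes of 12. By their means 8 were higher and 4 lower in KO, the median was 0.15, and 0 passed the test. Within the numbers the median was 0.44 (number 2) and -0.06 (number 3). Car9, a carbonic anhydrase, was higher on both KO arrays with a difference of 0.23, and the glucose transporter gene Slc2a1 was lower on both with a difference of -0.19. Among all tested probes, 13.1% were higher and 10.9% lower in this way.

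Markers of the cells that make or receive these signals were read beside them. Of 7 lymphatic endothelial markers, which belong to vessels where Angpt2 and the Tie receptors also act, 6 were lower in KO with a median of -0.50, and the median was -0.75 at each number. Mmrn1 and Reln, both expressed by lymphatic endothelium, were lower on both KO arrays without overlap, as were 10.9% of all tested probes. Of the 7 genes, 0 passed the limma test. The mean level of the list was -0.22 (WT 2), -0.80 (WT 3), -0.67 (KO 2) and -1.56 (KO 3).

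Of 9 tested pericyte markers, the cells that make Angpt1, 6 were higher and 3 lower in KO with a median of 0.17, and all overlapped. Their median was 0.49 at number 2 and -0.10 at number 3. Their mean level was 2.42 (WT 2), 2.47 (WT 3), 2.81 (KO 2) and 2.36 (KO 3). KO 2 was the high array, as for Angpt1, but KO 3 was the lowest array of the pericyte list and above both WT arrays for Angpt1.

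The fibroblast list had 9 of 10 genes lower in KO, 3 of them without overlap (10.9% of all tested probes), with a median of -0.41. Its mean level was 5.34 (WT 2), 5.48 (WT 3), 4.61 (KO 2) and 5.40 (KO 3), so that KO 2 was the low array. The median difference was -0.79 at number 2 and -0.0017 at number 3.

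The macrophage list had 9 of 10 genes lower in KO with a median of -0.41, made up of -1.07 within number 2 and 0.28 within number 3. The exception, Cd163, a scavenger receptor, was higher in KO without overlap, as were 13.1% of all tested probes. The mean level of the macrophage list was 2.99 (WT 2), 3.52 (WT 3), 2.15 (KO 2) and 3.80 (KO 3), the same order of arrays as for Angptl4. The 12 cardiomyocyte genes, well above background on all arrays, had mean levels of 6.48 (WT 2), 5.31 (WT 3), 7.48 (KO 2) and 4.50 (KO 3), the opposite order. Of these 12 genes 9 were higher and 3 lower in KO with a median of 0.08, made up of 0.98 within number 2 and -0.73 within number 3.

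The adipocyte list was measured in 4 of 7 genes, because Adipoq, Plin1 and Lep were too dim, and all 4 were higher in KO with a median of 1.72. Of the 4 genes, only 3 were well above background on all arrays. The median was 2.89 at number 2 and 0.28 at number 3. Of the 4 genes, 2 were higher without overlap, beside 13.1% of all tested probes. The platelet list, included because platelets carry Angpt1, had 3 of 6 genes higher and 3 lower with a median of 0.01. In that list 5 of the 6 genes were well above background on all arrays. No gene of any of these lists passed the limma test, and the part of cell composition in the angiopoietin and Tie receptor values was not tested.

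**Figure D5:**
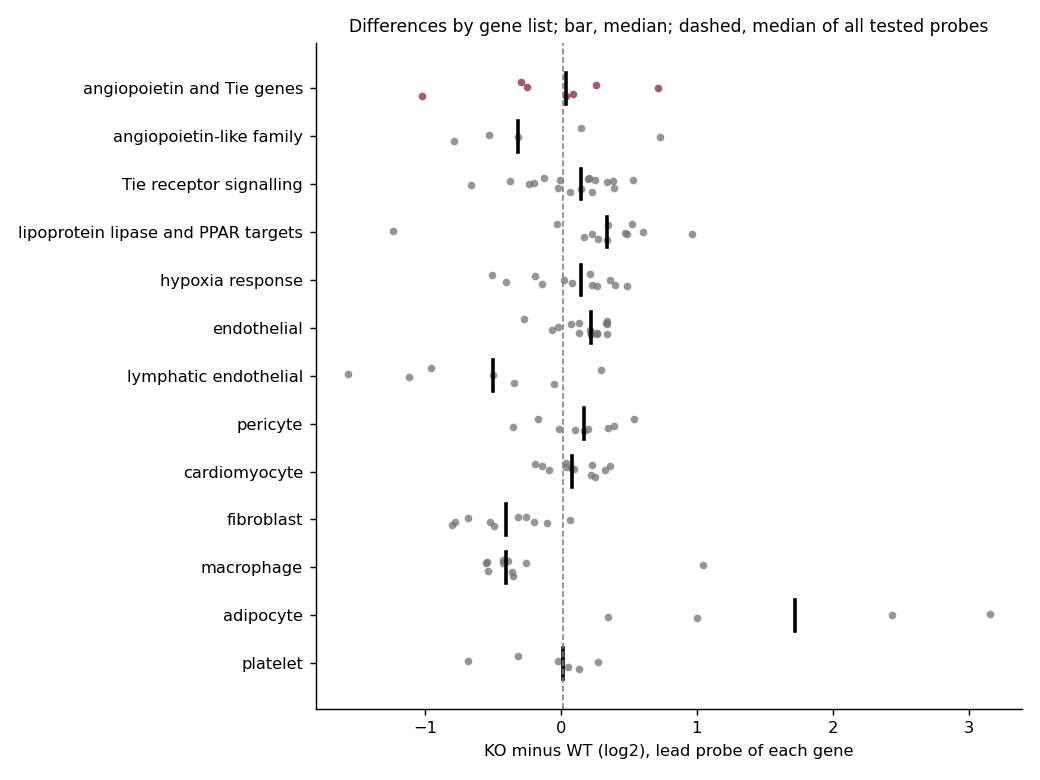
KO minus WT in log2 units (horizontal axis) for the lead probe of each tested gene, 1 point per gene, in the 7 angiopoietin and Tie receptor genes (red) and in the pathway and cell type lists (grey), with a bar at the median of each list and a dashed line at the median of all tested probes. The 7 genes spread from -1.03 for Angpt2 to 0.71 for Angpt1 around a median of 0.04, and the lymphatic, fibroblast and macrophage medians lie below 0.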

How the data were processed

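Per the file headers, the authors deposited 1 scanner table per array from Agilent Feature Extraction 10.7.3.1 (mm9 annotation) with processed intensity, which the software had background-subtracted and detrended. A further table deposited by the authors holds log2 values from GeneSpring, whose normalization is not given in the sources used here. Its median was 6.78. On each array 99.90% to 99.96% of its matched values came within 0.01 of log2 intensity after quantile normalization, so it served as an alternative.

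Control spots and outlier flags were left out, replicate spots were averaged for 245 probes, and the log2 intensity was shifted by the 75th percentile of the array. Testing required a probe to be well above background on both WT or both KO arrays, which left out 12864 dim probes and 6 lacking a value. limma 3.58.1 (lmFit and eBayes, R 4.3.3) was fitted to all 28304 probes with Benjamini-Hochberg adjustment, and a call needed a fold change over 2 at an adjusted p under 0.05. The script was tested on simulated data. All 7 symbols matched RefSeq symbols of GRCm38.p6. The depth of an array is not counted in reads, and the number of arrays limits the precision. Within each genotype the arrays differ in Xist and Ddx3y, so they are not technical replicates of 1 RNA. Whether a sample is 1 mouse or a pool is not stated, so p-values measure only the spread between the samples.

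Named genes were the 7 members with every probe, Kdm5b, Xist and Ddx3y, and from each pathway list up to 3 genes with the largest difference among those not overlapping between genotypes. For likeness, the genes of all lists with the smallest root mean square difference of mean-centred profiles were taken. The likeness for Angpt2 is not reported here. Genes named outside this rule (Mmrn1, Reln, Cd163) were chosen after their values were seen. The members and lists were chosen with earlier results of these data known.

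Alternatives tried were quantile normalization, normexp (offset 50), a median shift, no filter on dim probes, a filter on all 4 arrays, a block for array number, the authors' values, eBayes with trend and robust estimation, the methods' t-test and each array left out. For a gene with several probes, the mean difference over all its tested probes was also taken. A scale relative to the endothelial list was added after the data were seen.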

Additional observations from a re-analysis of the deposited data

Results flagged for a closer look

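KO minus WT had opposite signs at the array numbers for some genes. The difference at number 3 less that at number 2 was -1.10 for Tek, -0.94 for Tie1 and 0.98 for Angptl4. Each number holds 1 array per genotype, and the difference between the numbers was not tested.

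Xist, which is outside the comparison of genotypes, was bright on 2 arrays of samples labelled male, with 14.13 for WT 2 and 13.24 for KO 2 as unscaled log2 signals of the brightest of its 4 probes. On the number 3 arrays 0 of the 4 probes passed the background test of the scanner software.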

How the results depend on the processing

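No probe was called under any setting, and those run on all tested probes ranged from 125 to 7278 probes at an unadjusted p under 0.05, the methods' t-test giving 879 and 0 after Benjamini-Hochberg adjustment. Of the planned settings on all 4 arrays, filters and other variance models cannot move a difference, and 5 of the 64 differences that did move reversed. With normexp, which shifted the median of all tested probes to 0.13, Angptl2 probe 4 gave 0.11. Quantile normalization turned Angptl4 to -0.0077 and Tie1 to -0.0021, and the authors' values gave -0.0078 and -0.0022. Relative to the endothelial list 5 reversed, with Angptl2 probe 3 at -0.058, Angptl4 at -0.079, Ptprb probe 2 at -0.065, Ptprb probe 3 at -0.16 and Tie1 at -0.13. The 3 lead probes that did not overlap became 2, without Ptprb, with normexp, quantile normalization and the authors' values. Leaving out 1 array (13 of 60 differences reversed) gave 3 to 6 such probes and ranges of -0.35 to 0.57 for Angptl2 probe 3, -0.78 to 0.16 for probe 4, -0.88 to 1.06 for Angptl4, -0.0048 to 0.21, -0.16 to 0.19 and -0.0053 to 0.60 for Ptprb probes 2 to 4, -0.71 to 0.12 for Tek probe 1 and -0.35 to 0.43 for Tie1. Differences that kept their sign ran from 0.40 to 1.03 for Angpt1 probe 1, 0.44 to 1.01 for probe 2, -1.73 to -0.32 for Angpt2, -0.33 to -0.17 and -0.41 to -0.25 for Angptl2 probes 1 and 2, 0.10 to 0.42 for Ptprb probe 1 and -0.75 to -0.09 for Tek probe 2. The cause of these changes was not tested. Same-numbered arrays deviated together over probes (r = 0.57), but the labels give no pairing. With the array number as a replicate block, 0 probes were called and 602 had an unadjusted p under 0.05, against 410 without, and the Angpt2 difference of -1.03 had an SE of 0.24. The fold change passed 2 for 949 probes, 209 with normexp, 472 with the filter on all 4 arrays and 2110 without a filter, and for 5683 without KO 3, 1953 without WT 2, 1645 without KO 2 and 1087 without WT 3. A block for slide or scan day was not run, since there was 1 of each.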
